A study of Mus musculus with 30 samples.

Results

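The cytosolic ribosomal protein genes encode the protein parts of the ribosomes that translate nuclear messages in the cytoplasm. They were taken by symbol from every table of a mouse cardiac fibroblast study: all symbols that start with Rpl or Rps and a digit, plus Rpsa, Rplp0, Rplp1 and Rplp2, without pseudogene symbols that contain -ps and without the Rps6 kinase genes. This gave 94 genes of 56691 in the table of cultured fibroblasts, 94 of 55401 in the table of reprogramming factors, 94 of 55359 in the Nr4a3 overexpression table, 92 of 49492 in the Nr4a3 knockdown table and 86 of 32285 in each single-cell matrix. The symbol rule itself uses no measured value, though the choice was made with earlier results of these data known.

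The ribosome holds these proteins in fixed proportions, RPL proteins in the large subunit and RPS proteins in the small one, and their genes are usually expressed at coordinated levels. Their messages typically begin with a tract of pyrimidines, the 5′ terminal oligopyrimidine (TOP) motif, through which the kinase complex mTORC1 and the RNA-binding protein LARP1 govern their translation and stability. In the heart, ribosome production is known to accompany growth of cardiomyocytes, and RPL5 and RPL11 that are not built into ribosomes bind MDM2, the inhibitor of p53.

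All samples were cultures of primary cardiac fibroblasts (CFs) from wild-type mice. Markers of other cell types were also found in them, as given below. Untransduced CFs from neonatal pups of postnatal day 1 to 3 and from hearts of mice aged 3, 12 and 24 months were collected after 3 days in culture. CFs from neonatal, 3-month and 18-month hearts were collected 3 days after transduction with MGT, a vector for Mef2c, Gata4 and Tbx5, transcription factors used to turn fibroblasts into cardiomyocyte-like cells, or with LacZ, a bacterial enzyme gene that served as the control. OENr4a3 cells were neonatal CFs that overexpressed the nuclear receptor Nr4a3, set against OECtrl cells; the labels put their collection at day 10 and the study's design text at day 7. MGT+shNr4a3 cells were 3-month CFs with MGT and a hairpin against Nr4a3, set against MGT+shNT cells with a non-targeting hairpin, both at day 7. Each of these 14 groups had 2 bulk RNA-seq libraries, and 1 single-cell library each came from MGT-treated 24-month and neonatal CFs. The labels do not say that the libraries of a group came from separate animals, so the tests reflect no more than the spread between these libraries.

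Libraries held 17283764 to 22311330 counts in the untransduced CFs, 14489836 to 18796708 in the MGT and LacZ cells, 14275501 to 18441428 in the overexpression cells and 39746879 to 43448379 in the knockdown cells. Levels are given as CPM, counts scaled to a common library size, after TMM scaling, a correction for differences in library make-up, and, where genes are compared with each other, as CPM per kilobase of exon (RPKM). Changes are log2 fold changes with their standard error (SE), tested with edgeR's quasi-likelihood test and adjusted by Benjamini-Hochberg over all genes of a table. Genes with an adjusted p under 0.05 count as called. In bulk RNA, fewer cells of a type and less RNA per cell cannot be told apart. Summed over 9 fibroblast markers such as Col1a1 and Pdgfra, every library held at least 5446 CPM, the least in an MGT+shNT library.

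The TOP motif is read from the transcription start, so the start regions of members that carry the letters CTTTC there are shown, with those letters in capitals. They are 30 bases long from RefSeq on GRCm38.p6, on the sense strand, with the annotated start at base 16. Rplp2 (chr7:141447636-141447665, + strand), an acidic stalk protein, Rpl38 (chr11:114668565-114668594, + strand) and Rps27rt (chr9:114982725-114982754, - strand) carry CTTTC exactly at the annotated start. Rpl28 (chr7:4792950-4792979, + strand) and Rpl35a (chr16:33056467-33056496, + strand) carry it just inside the transcript. Rpl35 (chr2:39005117-39005146, - strand) and Rps27 (chr3:90213634-90213663, - strand) hold it at 2 places.
Rplp2: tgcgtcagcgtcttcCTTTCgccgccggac
Rpl38: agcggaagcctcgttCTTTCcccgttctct
Rps27rt: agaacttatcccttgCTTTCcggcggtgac
Rpl28: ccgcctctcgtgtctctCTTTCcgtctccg
Rpl35a: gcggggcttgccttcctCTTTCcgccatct
Rpl35: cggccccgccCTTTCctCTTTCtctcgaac
Rps27: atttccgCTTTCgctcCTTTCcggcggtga

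RefSeq start regions were at hand for 69 of the 94 members, 81 regions in all. CTTTC on the sense strand stood within 15 bases of the start in 19 of these 81 regions (23.5%), against 1330 of 32851 regions of all genes (4.05%). The reverse complement GAAAG was found in 3.7% of member regions and 3.6% of all regions. The mitochondrial ribosomal proteins, which build the separate ribosome of mitochondria, had CTTTC in 3 of 75 regions (4%). The RefSeq starts are annotated ones and were not measured in these cells, and a match of letters is a description. CTTTC within 15 bases of the start can lie upstream of it, as in Rpl13 at base -11, and other pyrimidine tracts were not searched for. Members with and without it are thus not members with and without a TOP motif. In 12-month against 3-month CFs, described below, the median change was 0.29 on the log2 scale for 18 members with CTTTC there and 0.27 for 48 without it. In OENr4a3 against OECtrl cells it was -0.55 for 17 and -0.54 for 48, and in MGT+shNr4a3 against MGT+shNT cells -0.13 for 17 and -0.19 for 47.

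Rpl22l1, the paralog of Rpl22 that returns in several comparisons, has a start region without CTTTC, as do Rplp0, the stalk base protein, and Rpsa, the small-subunit protein also known as the laminin receptor precursor. Their regions are shown for comparison: Rpl22l1 at chr3:28805493-28805522, Rplp0 at chr5:115559452-115559481 and Rpsa at chr9:120127751-120127780, all on the + strand.
Rpl22l1: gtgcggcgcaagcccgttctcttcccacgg
Rplp0: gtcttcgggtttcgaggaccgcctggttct
Rpsa: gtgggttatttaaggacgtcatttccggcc

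The members were not all intact ribosomal protein genes. GENCODE M21 lists 7 of the 94 as pseudogenes: Rpl32l, Rpl6l, Rps12l1, Rps3a2 and Rps3a3 as processed, Rpl37rt and Rps4l as transcribed processed pseudogenes. It holds no gene under the symbol Rps23rg1 and lists the other members as protein coding. Rps19bp1, a binding partner of RPS19, and Rps23rg1 match the symbol rule without being ribosomal proteins. Fau, which encodes a ribosomal protein fused to a ubiquitin-like domain, does not match the rule. Large-subunit and small-subunit genes are counted below by the prefix Rpl or Rps alone. Those counts therefore include the pseudogenes, Rps19bp1 and Rps23rg1 wherever these were tested. Ribosomal protein genes have many near-identical processed copies in the mouse genome, so reads can be shared between a gene and its copies, and the level of any single member is uncertain to that extent. After the filter on low counts, 90 members were tested in the untransduced CFs, 90 in the MGT and LacZ cells, 89 in the overexpression cells and 89 in the knockdown cells. Rpl10l, the testis paralog of Rpl10, and Rpl3l, the striated-muscle paralog of Rpl3, were among those not tested in any table.

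Per length, Rplp1, an acidic protein of the ribosomal stalk that recruits elongation factors, had the highest mean level of any member in 3 tables. It had 954 RPKM in neonatal CFs, 1030 RPKM in 3-month CFs, 1374 RPKM in 12-month CFs and 1084 RPKM in 24-month CFs. In OENr4a3 cells it had 868 RPKM, against 1277 RPKM in OECtrl cells. In the knockdown table Rpl19, a large-subunit protein at the bridge between subunits, was highest, with 830 RPKM in MGT+shNr4a3 cells and 982 RPKM in MGT+shNT cells. The median member had 133 to 160 RPKM in the untransduced CFs and 60.3 to 97.1 RPKM in the MGT and LacZ cells.

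Levels were compared only within a table, since the tables differed for single members. Between LacZ neonatal and untransduced neonatal CFs, 20 of 88 members were at least 4-fold lower in the LacZ cells and 1, Rpl37rt, was at least 4-fold higher. Between OECtrl cells and untransduced neonatal CFs, 29 members were at least 4-fold lower and 2 higher. The part of counting, library kit, culture time and vector in this cannot be told apart.

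The share of all counts that fell on members differed between the groups of most comparisons. In untransduced CFs it was 3.21% and 3.01% in neonatal CFs, 2.89% and 2.84% at 3 months, 3.41% and 3.63% at 12 months, and 2.83% and 2.79% at 24 months. The 12-month libraries were thus the highest of these 8 and the 24-month ones the lowest. In MGT cells it was 2.28% and 2.41% for neonatal, 2.48% and 2.52% for 3-month and 1.87% and 1.91% for 18-month CFs. In LacZ cells it was 2.53% and 2.60% for neonatal, 2.60% and 3.17% for 3-month and 2.65% and 2.53% for 18-month CFs. Every MGT library was below both LacZ libraries of its age, with a log2 ratio of means of -0.13 for neonatal, -0.21 for 3-month and -0.45 for 18-month CFs. OENr4a3 cells had 1.24% and 1.26%, against 1.58% and 2.01% in OECtrl cells. MGT+shNr4a3 cells had 1.83% and 1.57%, against 1.98% and 1.93% in MGT+shNT cells. An exact permutation test of 2 against 2 libraries cannot go below p = 0.333, so the shares are given without a test.

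**Figure D1:**
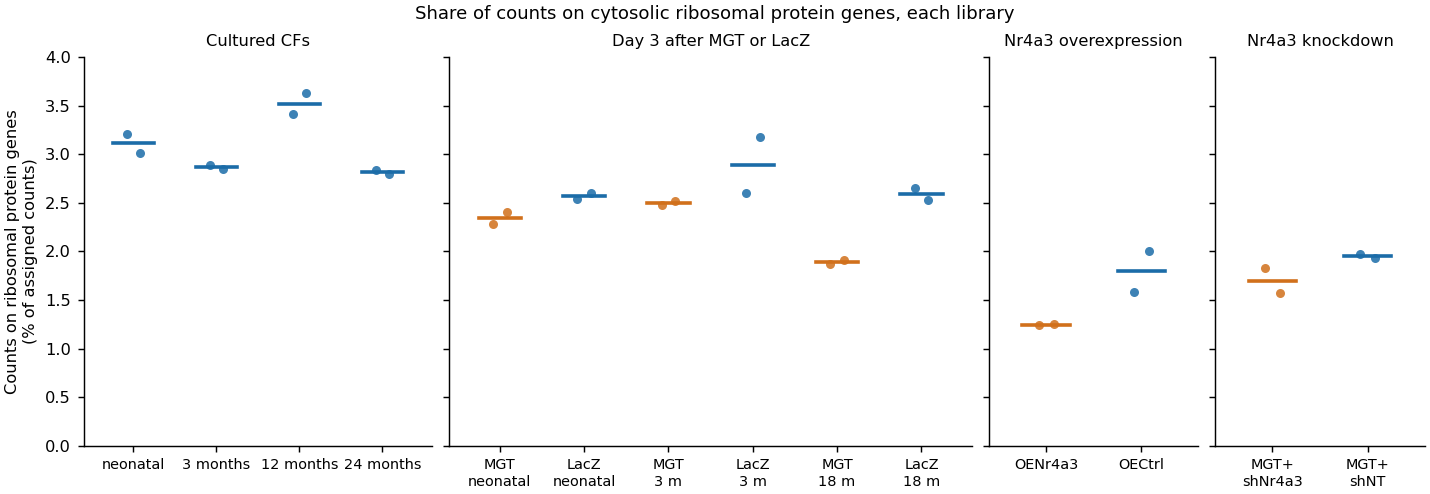
Share of all counts (%, vertical axis) that fell on the cytosolic ribosomal protein genes by group (horizontal axis) in the 4 count tables, with 1 point per library and a line at the mean of the 2 libraries of a group. The 12-month CFs lie highest among untransduced CFs, at 3.41% and 3.63%, and the OENr4a3 libraries, at 1.24% and 1.26%, lie below both OECtrl libraries, at 1.58% and 2.01%.

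Members were higher in 12-month than in 3-month CFs almost without exception. Of 90 tested members 80 rose and 1 fell, against 13% of all genes called up and 15.5% called down in this comparison. The median member change was 0.28 on the log2 scale, against -0.00 over all 16466 tested genes, and the libraries of the groups did not overlap for 85 members, against 62.4% of all tested genes. Large-subunit genes rose in 46 of 53 cases and small-subunit genes in 34 of 37, with medians of 0.27 and 0.28. Of 28 members called and named by rule, 23 kept their call whichever library was left out.

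The stalk genes moved together. Rplp0 had 1808 and 1869.7 CPM in 12-month CFs, against 1341 and 1359 CPM in 3-month CFs. Rplp1 had 689 and 683 CPM in 12-month CFs, against 513 and 515 CPM in 3-month CFs. Rplp2 had 271 and 290.2 CPM in 12-month CFs, against 203 and 194 CPM in 3-month CFs. Both 12-month libraries were above both 3-month libraries for all 3 genes, and edgeR gave log2 fold changes of 0.45 ± 0.04 (SE; adjusted p = 3.75e-11) for Rplp0, 0.42 ± 0.04 for Rplp1 and 0.50 ± 0.05 for Rplp2. Rps2, a protein near the entry of the messenger channel, had 1969 and 2071 CPM in 12-month CFs and 1475 and 1442 CPM in 3-month CFs, a rise of 0.47 ± 0.04. The largest rise among members at 3 or more on the average log2 CPM scale was that of Rpl36, a large-subunit protein, by 0.58 ± 0.05 (edgeR, adjusted p = 1.08e-09). It had 163 and 175 CPM in 12-month CFs and 113 and 114 CPM in 3-month CFs.

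Of the named members known to be mutated in Diamond-Blackfan anaemia, an inherited failure of red cell production, Rps19 rose by 0.38, Rps26 by 0.32, Rpl35a by 0.28 and Rps24 by 0.24 on the log2 scale, and the 5S particle genes Rpl11 and Rpl5 by 0.15 ± 0.04 and 0.12 ± 0.04. Rps6, the target of S6 kinases, rose by 0.23 ± 0.04. Rpl3, which lines the peptidyl transferase centre, and Rpl10a stayed within their error at -0.01 ± 0.04 and -0.00 ± 0.04.

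Rpl22l1 was the 1 member that fell. It had 27.6 and 31.6 CPM in 12-month CFs, against 42.4 and 38.1 CPM in 3-month CFs, a log2 fold change of -0.44 ± 0.08 (edgeR, adjusted p = 0.000112). Its partner Rpl22, an RNA-binding large-subunit protein known in mouse to repress Rpl22l1, had 167 and 180.3 CPM in 12-month CFs, against 143 and 141 CPM in 3-month CFs, a rise of 0.29 ± 0.05. The groups did not overlap for either gene, and the paralogs moved in opposite directions.

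Other genes of ribosome production are shown for the same comparison. Of 40 ribosome biogenesis factors, which process and assemble ribosomal RNA, 25 rose and none fell, with a median of 0.22. Among them were Nhp2 (0.54) and Nop2 (0.47), which modify ribosomal RNA, and the nucleolar chaperone Npm1 (0.26). Of 21 other genes with TOP messages 11 rose, such as the ribosome-bound scaffold Rack1 (0.29), and of 78 mitochondrial ribosomal protein genes 21 rose, with a median of 0.16. In the p53 list Cdkn1a, the cell-cycle inhibitor, rose by 0.72 and Mdm2 by 0.65. Over the same libraries the summed level of 9 fibroblast markers was 18062 to 19060.5 CPM in 12-month CFs against 28904 to 29469 CPM in 3-month CFs. Col3a1 was the largest part, at 7251 and 6649 CPM against 13354 and 13575 CPM. Pdgfra was higher in 12-month CFs, at 1519 and 1601 CPM against 1397 and 1300 CPM. Postn overlapped, and the other fibroblast markers were lower. The 5 cycling markers summed to 443 to 487 CPM against 739.5 to 769.7 CPM. The part of these markers in the result was not tested. Abundant genes with exons of at most 1000 bases that are not members had a median of 0.19, and 70 members rose and 1 fell when the trend of change with gene length was removed.

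Between 24-month and 12-month CFs, 80 of 90 members fell and none rose, against 8.07% of all genes called down and 10.8% called up. The median was -0.28, and 88 members did not overlap between the groups, against 56% of all tested genes. Rps2 had 1521 and 1472 CPM in 24-month CFs, against 1969 and 2071 CPM in 12-month CFs, a change of -0.43 ± 0.04 (edgeR, adjusted p = 2.93e-10). Rplp2 had 211 and 209 CPM in 24-month CFs, against 271 and 290.2 CPM in 12-month CFs, and Rpl36 had 126 and 128 CPM against 163 and 175 CPM. Both changes were -0.42 ± 0.05, and every 24-month library was below every 12-month one for these genes. Of 27 members called and named by rule, 23 kept their call whichever library was left out. This comparison uses the same 12-month libraries as the one with 3-month CFs, so the 2 are not independent. Of 40 ribosome biogenesis factors 20 fell and none rose, and of 21 other TOP genes 14 fell. Xist, expressed from the inactive X chromosome of females, was at 774 and 832 CPM in the 24-month libraries and 0.286 and 0.447 CPM in the 12-month libraries, so age and sex cannot be told apart here. Fibroblast markers summed to 24959.8 to 25756 CPM in 24-month CFs, against 18062 to 19060.5 CPM in 12-month CFs. Among them Postn was lower in 24-month CFs, at 165 and 187 CPM against 232 and 251 CPM, and Pdgfra overlapped. The other fibroblast markers were higher. Cycling markers summed to 387 to 438 CPM, against 443 to 487 CPM. The part of these markers was not tested.

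Few members differed between 24-month and 3-month CFs. Of 90 members 3 rose and 3 fell, against 8.85% of all genes called up and 9.47% called down, and the median was -0.00. Rpl22l1 had 34.2 and 32.2 CPM in 24-month CFs, against 42.4 and 38.1 CPM in 3-month CFs, a log2 fold change of -0.28 ± 0.08 (edgeR, adjusted p = 0.0127). Rpl3 fell by 0.22 ± 0.04 and Rpl10a by 0.17 ± 0.04 on the log2 scale. Rps28, a small-subunit protein at the message exit, rose by 0.17 ± 0.06, Rpl36 by 0.16 ± 0.06 and Rplp0 by 0.13 ± 0.04. Of these 6 genes, Rpl3 alone kept its call whichever of the 4 libraries was left out; Rpl36 lost it without any of them, and each library ended at least 1 call. Rplp0, for example, was at 1494 and 1454 CPM in 24-month CFs and 1341 and 1359 CPM in 3-month CFs. Xist was at 774 and 832 CPM in the 24-month libraries, against 0.449 and 0.479 CPM in the 3-month ones, so age and sex cannot be told apart here either. Cycling markers summed to 387 to 438 CPM in 24-month CFs, against 739.5 to 769.7 CPM in 3-month CFs, and fibroblast markers to 24959.8 to 25756 CPM, against 28904 to 29469 CPM. Dcn, Lum and Pdgfra were higher in 24-month CFs, and the other fibroblast markers were lower. The part of these markers was not tested.

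**Figure D2:**
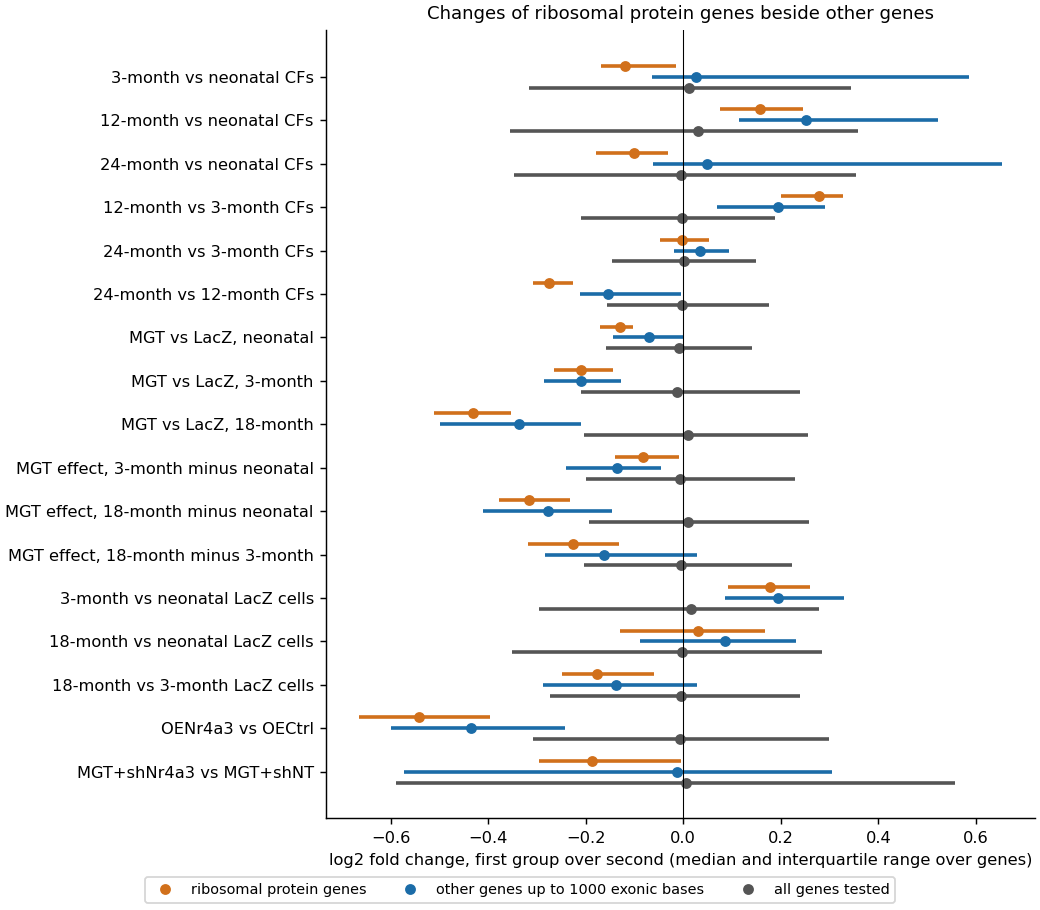
Log2 fold changes (horizontal axis; point, median; bar, interquartile range over genes) of the cytosolic ribosomal protein genes (orange), of other abundant genes with at most 1000 exonic bases (blue) and of all tested genes (grey) in each comparison (vertical axis). The members' median is 0.28 in 12-month against 3-month CFs, -0.28 in 24-month against 12-month CFs, -0.43 in 18-month MGT against LacZ cells and -0.54 in OENr4a3 against OECtrl cells, while all genes stay near 0.

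Set against neonatal CFs, the 3 adult ages gave different pictures. In 3-month CFs 4 members rose and 43 fell, against 28% of all genes called up and 24.4% called down, with a median of -0.12. In 12-month CFs 60 rose and 1 fell, against 29.7% of all genes called up and 25.5% called down, with a median of 0.16. In 24-month CFs 9 rose and 38 fell, against 27.9% of all genes called up and 26.6% called down, with a median of -0.10. These comparisons share the 2 neonatal libraries, and the counts depended on them. Without neonatal replicate 1 the 3-month count was 6 up and 18 down, and without replicate 2 it was 1 up and 59 down. It was 4 up and 19 down without 3-month replicate 2. Without neonatal replicate 2 the 12-month count was 24 up and 3 down, without 12-month replicate 2 it was 38 up and 2 down, and with the length trend removed it was 26 up and 12 down.

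Rpsa was higher at each adult age: 1116 and 1069.9 CPM in neonatal CFs, 1204 and 1235 CPM in 3-month CFs, 1530.1 and 1591 CPM in 12-month CFs, and 1246 and 1247 CPM in 24-month CFs. No adult library reached down to the neonatal range. The log2 fold changes against neonatal CFs were 0.16 ± 0.04, 0.51 ± 0.04 and 0.19 ± 0.04 at 3, 12 and 24 months; the 3-month one lost its call without neonatal replicate 2. Rpl4, a protein of the peptide exit tunnel, had 1179 and 1131 CPM in neonatal CFs, 972 and 979 CPM in 3-month CFs, 1071 and 1138 CPM in 12-month CFs and 913 and 921 CPM in 24-month CFs. It was lower than in neonatal CFs at 3 and 24 months, by -0.24 ± 0.04 and -0.33 ± 0.04, while the 12-month value of -0.06 ± 0.04 was not called.

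Rpl10, an X-linked protein that joins late in large-subunit assembly, had 718 and 684 CPM in neonatal CFs, 604 and 589 CPM in 3-month CFs, 632 and 667 CPM in 12-month CFs and 561 and 577 CPM in 24-month CFs. It was the 1 member called below the neonatal level at 12 months, by -0.11 ± 0.04 (edgeR, adjusted p = 0.02), a call lost without 12-month replicate 1 or neonatal replicate 1. Rpl22l1 was higher at 3 months than in neonatal CFs, by 0.44 ± 0.08, and level at 12 months, at -0.00 ± 0.09, with 27.5 and 32.3 CPM in neonatal CFs. Rpl39l, a paralog of Rpl39 known mainly from testis, was higher at all 3 ages but barely expressed: 0.188 and 0.0568 CPM in neonatal CFs, 0.495 and 0.623 CPM in 3-month CFs, 0.802 and 0.647 CPM in 12-month CFs, and 0.563 and 0.475 CPM in 24-month CFs. Cardiomyocyte markers summed to 10.8 to 36.2 CPM in the adult libraries, against 1027 to 1105 CPM in the neonatal ones. The part of these markers was not tested. Xist was at 1276 and 1287 CPM in neonatal CFs, against 0.449 and 0.479 CPM in 3-month and 0.286 and 0.447 CPM in 12-month CFs. Against neonatal CFs, age at 3 and 12 months therefore cannot be told apart from sex. The 24-month libraries had 774 and 832 CPM of Xist.

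Members were lower with MGT, most clearly in 18-month CFs. In neonatal CFs edgeR called none, against 4.26% of all genes called up and 3.24% called down. There, 85 of 90 members were lower in MGT than in LacZ cells, with a median of -0.13; 9 were lower and none higher at an unadjusted p under 0.05, against 7.94% and 8.25% of all genes, and DESeq2 also called none. Fitted on the neonatal MGT and LacZ libraries alone, edgeR called 13 down. In 3-month CFs 16 fell and none rose, against 8.39% of all genes called down and 8.99% called up, with a median of -0.21. Fitted on the 3-month MGT and LacZ libraries alone, edgeR called none. In 18-month CFs 70 of 90 fell and none rose, against 8.05% of all genes called down and 8.52% called up, with a median of -0.43; without LacZ replicate 1 of that age 46 fell. Of 24 members called and named by rule at 18 months, 12 kept their call whichever library was left out.

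At 18 months the change reached both subunits, with falls in 42 of 52 large-subunit and 28 of 38 small-subunit genes. Rpl41, the shortest ribosomal protein, had 228 and 244 CPM in MGT cells, against 396 and 389 CPM in LacZ cells, a log2 fold change of -0.73 ± 0.09 (edgeR, adjusted p = 1.47e-06). Rpl30, a large-subunit protein, had 194 and 189 CPM in MGT cells, against 320.3 and 296 CPM in LacZ cells, a change of -0.68 ± 0.09. The groups lay well apart for both. Rplp0 had 1054 and 1132 CPM in MGT cells, against 1361 and 1301 CPM in LacZ cells, a smaller change of -0.28 ± 0.08 that was lost without LacZ replicate 1, LacZ replicate 2 or MGT replicate 1.

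The largest falls at 18 months, those of Rpl37rt and Rpl6l, belonged to annotated pseudogenes. Rpl37rt had 44.3 and 45.6 CPM in MGT cells, against 88.4 and 79.98 CPM in LacZ cells, a change of -0.91 ± 0.10. Rpl6l had 22.0 and 21.8 CPM in MGT cells, against 38.8 and 41.0 CPM in LacZ cells, a change of -0.86 ± 0.11, and Rps3a3, also a pseudogene, changed by -0.66 ± 0.14. Their parent genes were also lower, Rpl37 by -0.50 ± 0.09, Rpl6 by -0.33 ± 0.08 and Rps3a1 by -0.50 ± 0.09. Since a gene and its copy can share reads, the size of the difference between them is uncertain. Of the same Diamond-Blackfan genes, Rpl35a fell by 0.60, Rps24 by 0.50, Rps26 by 0.49, Rpl11 by 0.39 and Rps19 by 0.38 on the log2 scale, while Rpl5 at -0.31 ± 0.11 was not called.

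At 3 months the called members had smaller changes. Rpl21, a large-subunit protein, had 89.5 and 92.5 CPM in MGT cells, against 100.5 and 135 CPM in LacZ cells, a change of -0.37 ± 0.10 (edgeR, adjusted p = 0.0128). Rpl35a changed by -0.35 ± 0.12 and Rpl22 by -0.33 ± 0.09. The LacZ libraries stood apart from each other here, replicate 2 being the higher one for Rpl21 as for the share of counts. Without LacZ replicate 2 no member was called, without LacZ replicate 1 there were 67, and without MGT replicate 1 or 2 there were 0 and 1.

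The difference between the MGT effects of 2 ages was tested as an interaction. Neonatal MGT cells had 526 and 439 CPM of Xist and neonatal LacZ cells 516 and 547 CPM. The highest value in a 3-month or 18-month library was 0.567 CPM. Age and sex therefore cannot be told apart where neonatal CFs enter. Cardiomyocyte and endothelial markers also differed in neonatal CFs, as given below for LacZ cells, and their part was not tested. For 18-month minus neonatal, 6 members were lower and none higher, against 0.788% of all genes called down and 2.03% called up, with a median of -0.32; 52 members were lower and 1 higher at an unadjusted p under 0.05, against 6.34% and 7.95% of all genes. For 18-month minus 3-month, 5 were lower and 1 higher, against 0.782% of all genes called down and 1.56% called up, with a median of -0.23. For 3-month minus neonatal none was called by edgeR, against 2.28% of all genes called up and 1.41% called down, with a median of -0.08; none passed an unadjusted p under 0.05 either, against 7.33% of all genes higher and 6.46% lower, and DESeq2 called none. Rpl41 shows the pattern: in neonatal CFs it had 335 and 336 CPM in MGT cells, against 351 and 377 CPM in LacZ cells, and at 3 months 418 and 407 CPM in MGT cells, against 403 and 507 CPM in LacZ cells, beside the 18-month values above. Its effect differed by -0.61 ± 0.13 between 18-month and neonatal CFs and by -0.59 ± 0.13 between 18-month and 3-month CFs. Without LacZ 3-month replicate 2, 51 members were lower in 18-month minus 3-month, and without LacZ 3-month replicate 1, 16 were lower in 3-month minus neonatal. The 6 calls of 18-month minus neonatal fell to 2 without LacZ neonatal replicate 1 and to 3 without LacZ neonatal replicate 2 or replicate 1 of either 18-month group. Those of 18-month minus 3-month fell to 1 or 2 when any 1 library of MGT 3-month, MGT 18-month or LacZ 18-month cells was left out.

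In 18-month MGT cells, 15 of 40 ribosome biogenesis factors fell and none rose, with a median of -0.22, among them Nhp2 (-0.67) and Npm1 (-0.56). Of 78 mitochondrial ribosomal protein genes 18 fell, with a median of -0.25, and of 21 other TOP genes 11 fell, with a median of -0.28. Short abundant genes that are not members had a median of -0.34 in the same comparison. With the length trend removed 61 members fell and 1 rose. The 5 cycling markers summed to 639 to 684 CPM in MGT cells, against 930 to 952 CPM in LacZ cells, and the 9 cardiomyocyte markers to 340 to 356 CPM, against 3.79 to 6.32 CPM. Fibroblast markers summed to 10169 to 11644 CPM in MGT cells, against 8332 to 9354 CPM in LacZ cells. The part of these markers in the result was not tested.

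**Figure D3:**
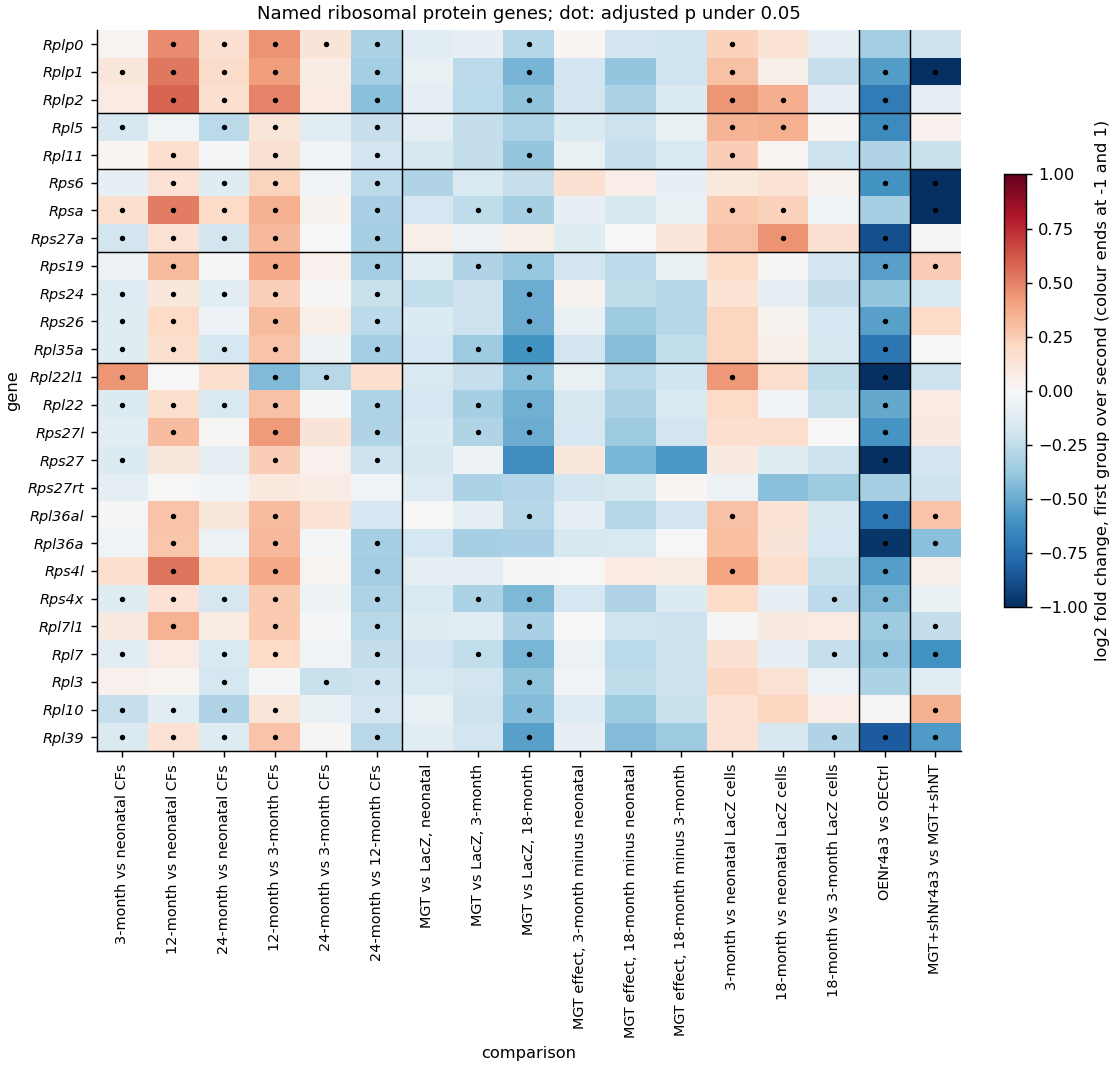
Log2 fold change (colour, blue negative and red positive, ends at -1 and 1) of members named by role (rows, split into role groups) in each comparison (columns); a dot marks an adjusted p under 0.05. The columns of 18-month MGT and OENr4a3 cells are blue for most genes, and in the knockdown column Rpsa and Rplp1 stand out, at -1.96 and -1.08.

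The LacZ cells were also compared between ages. In 3-month against neonatal LacZ cells 19 members rose and none fell, against 15.1% of all genes called up and 15.8% called down, with a median of 0.18. In 18-month against neonatal LacZ cells 12 rose and 5 fell, against 16.7% of all genes called up and 18.3% called down, with a median of 0.03. In 18-month against 3-month LacZ cells 1 rose and 17 fell, against 10.8% of all genes called up and 12.2% called down, with a median of -0.18. Rpl10a, the protein of the L1 stalk of the large subunit, was higher at both adult ages: 54.9 and 58.6 CPM in neonatal, 66.4 and 75.2 CPM in 3-month and 89.98 and 81.7 CPM in 18-month LacZ cells. Its change of 0.60 ± 0.10 at 18 months (edgeR, adjusted p = 3.31e-05) was the largest among rises there. Rpl23, a large-subunit protein at the subunit interface, was lower at 18 months, at 297 and 296 CPM, against 382 and 389.6 CPM in neonatal LacZ cells, a change of -0.38 ± 0.09. The counts that use 3-month LacZ cells rested on single libraries. For 3-month against neonatal cells 2 rose without 3-month replicate 2 or neonatal replicate 1, 8 without neonatal replicate 2 and 63 without 3-month replicate 1. For 18-month against 3-month cells, 5 rose and 3 fell without 3-month replicate 2, 58 fell without 3-month replicate 1, and 6 and 2 fell without 18-month replicates 1 and 2. The 17 calls of 18-month against neonatal cells dropped to between 6 and 10 without any 1 library. Of 40 ribosome biogenesis factors, 28 rose in 18-month against neonatal LacZ cells and none fell, with a median of 0.35, led by Dkc1 (0.91), the pseudouridine synthase of ribosomal RNA. Fibroblast markers summed to 16258 to 16602 CPM in neonatal, 16076 to 16877 CPM in 3-month and 8332 to 9354 CPM in 18-month LacZ cells. Cardiomyocyte markers summed to 289.7 to 338 CPM in neonatal, 4.66 to 5.24 CPM in 3-month and 3.79 to 6.32 CPM in 18-month LacZ cells, and endothelial markers to 304 to 336 CPM, 15.5 to 16.9 CPM and 7.36 to 12.8 CPM at these ages. Xist was at 516 and 547 CPM in neonatal, 0.511 and 0.567 CPM in 3-month and 0.347 and 0.0621 CPM in 18-month LacZ cells. The part of the markers was not tested, and neonatal and adult age cannot be told apart from sex.

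Members were broadly lower with overexpression of Nr4a3. Nr4a3 itself was at 175 and 178 CPM in OENr4a3 cells, against 2.49 and 1.86 CPM in OECtrl cells. Of 89 tested members 63 fell and none rose, against 10.8% of all genes called down and 11.9% called up, with a median of -0.54, and 88 had a negative change. Falls were found in 38 of 52 large-subunit and 25 of 37 small-subunit genes, and DESeq2 called 60 down.

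Rpl22l1 had the largest fall of any member. It was at 12.8 and 11.9 CPM in OENr4a3 cells, against 31.7 and 40.1 CPM in OECtrl cells, a log2 fold change of -1.54 ± 0.15 (edgeR, adjusted p = 0.000359). Rpl22 was at 155 and 142 CPM in OENr4a3 cells, against 184 and 239 CPM in OECtrl cells, a change of -0.51 ± 0.13. Here both paralogs fell, unlike in 12-month CFs. Rps28 was at 25.3 and 28.5 CPM in OENr4a3 cells, against 43.2 and 58.3 CPM in OECtrl cells, a change of -0.92 ± 0.16. Rps27a, which is made as a fusion to ubiquitin, changed by -0.88 ± 0.17, Rpl36a, an X-linked large-subunit protein, by -0.97 ± 0.19, and Rpl39, which lines the exit tunnel, by -0.83 ± 0.14.

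The stalk genes fell unevenly: Rplp2 by 0.70 ± 0.14 and Rplp1 by 0.56 ± 0.12, while Rplp0 at -0.34 ± 0.12 was not called. Rplp0 was at 779.97 and 803 CPM in OENr4a3 cells, against 897 and 1106 CPM in OECtrl cells, so that the groups did not overlap. Rpl10 had the 1 change above 0, with 23.9 and 24.6 CPM in OENr4a3 cells, against 25.3 and 22.7 CPM in OECtrl cells, groups that overlapped. Rpl5 fell by 0.63 ± 0.16, and Rpl11 at -0.30 ± 0.11 was not called.

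Of 40 ribosome biogenesis factors 17 fell and none rose, with a median of -0.31, such as the methyltransferase Fbl (-0.68), Nhp2 (-0.65) and Nop16 (-0.80). Mitochondrial ribosomal protein genes fell in 38 of 77 cases, with a median of -0.46, and other TOP genes in 10 of 21, with a median of -0.35. Short abundant genes that are not members had a median of -0.44, and with the length trend removed 34 members fell and 1 rose. The OECtrl libraries differed from each other, and the count ranged with the library left out: 81 down without OECtrl replicate 1, 69 without OECtrl replicate 2, 15 without OENr4a3 replicate 1 and 17 without OENr4a3 replicate 2. Of 21 members called and named by rule, 7 kept their call whichever library was left out, Rpl22l1 among them. Macrophage markers summed to 612 to 632 CPM in OENr4a3 cells, against 940 to 954 CPM in OECtrl cells, and Xist was at 483 and 484 CPM, against 282 and 224 CPM. Cardiomyocyte markers summed to 264 to 293 CPM in OENr4a3 cells, against 453 to 498 CPM in OECtrl cells, cycling markers to 110.5 to 127 CPM, against 138 to 175 CPM, and endothelial markers to 31.3 to 36.8 CPM, against 42.2 to 46.0 CPM. Nearly all of the cardiomyocyte sum was Tnnt2, at 250 and 284 CPM in OENr4a3 cells, against 448 and 495 CPM in OECtrl cells. At low levels, Myh6, Actc1, Ttn, Actn2 and Ryr2 were higher in OENr4a3 cells, Tnni3 was lower, and Myl7 and Pln overlapped. The part of these differences was not tested.

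With knockdown of Nr4a3 in MGT cells, 3 members fell far more than the rest. Nr4a3 was at 0.431 and 0.744 CPM in MGT+shNr4a3 cells, against 8.84 and 8.18 CPM in MGT+shNT cells. Of 89 tested members 29 fell and 4 rose, against 26.7% of all genes called down and 27.9% called up, with a median of -0.19. The share of members that fell is near that of all genes and is not a result about them as a set. Falls were found in 15 of 51 large-subunit and 14 of 38 small-subunit genes.

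Rpsa had 177 and 134 CPM in MGT+shNr4a3 cells, against 607 and 608 CPM in MGT+shNT cells, a log2 fold change of -1.96 ± 0.12 (edgeR, adjusted p = 4.67e-08). Rplp1 had 150.5 and 126 CPM in MGT+shNr4a3 cells, against 297 and 288 CPM in MGT+shNT cells, a change of -1.08 ± 0.09. Rps6 had 213 and 180.3 CPM in MGT+shNr4a3 cells, against 424 and 407 CPM in MGT+shNT cells, also a change of -1.08 ± 0.09. These 3 genes fell far more than the median member, and each kept its call whichever library was left out. The partners of Rplp1 in the stalk were not called, Rplp0 at -0.21 ± 0.10 and Rplp2 at -0.10 ± 0.09, with 329 and 288 CPM of Rplp2 in MGT+shNr4a3 cells and 324 and 335 CPM in MGT+shNT cells. Rps18 fell by 0.65 ± 0.10, Rpl27a by 0.62 ± 0.10 and Rpl7 by 0.61 ± 0.09.

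The 4 members that rose were Rpl23a, Rpl10, Rpl36al and Rps19. Rpl23a, at the mouth of the exit tunnel, had 593 and 576 CPM in MGT+shNr4a3 cells, against 436 and 445 CPM in MGT+shNT cells, a rise of 0.41 ± 0.08 (edgeR, adjusted p = 0.000651). Rpl10 had 154 and 119 CPM in MGT+shNr4a3 cells, against 109 and 105 CPM in MGT+shNT cells, a rise of 0.35 ± 0.11. Rpl36al, the autosomal paralog of Rpl36a, rose by 0.29 ± 0.10 and Rps19 by 0.25 ± 0.10; these 2 and Rpl10 lost their calls without 1 or more of the libraries, among them MGT+shNT replicate 2. The number of falls ranged from 14 without MGT+shNT replicate 1, 15 without MGT+shNT replicate 2 and 16 without MGT+shNr4a3 replicate 2 to 56 without MGT+shNr4a3 replicate 1.

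**Figure D4:**
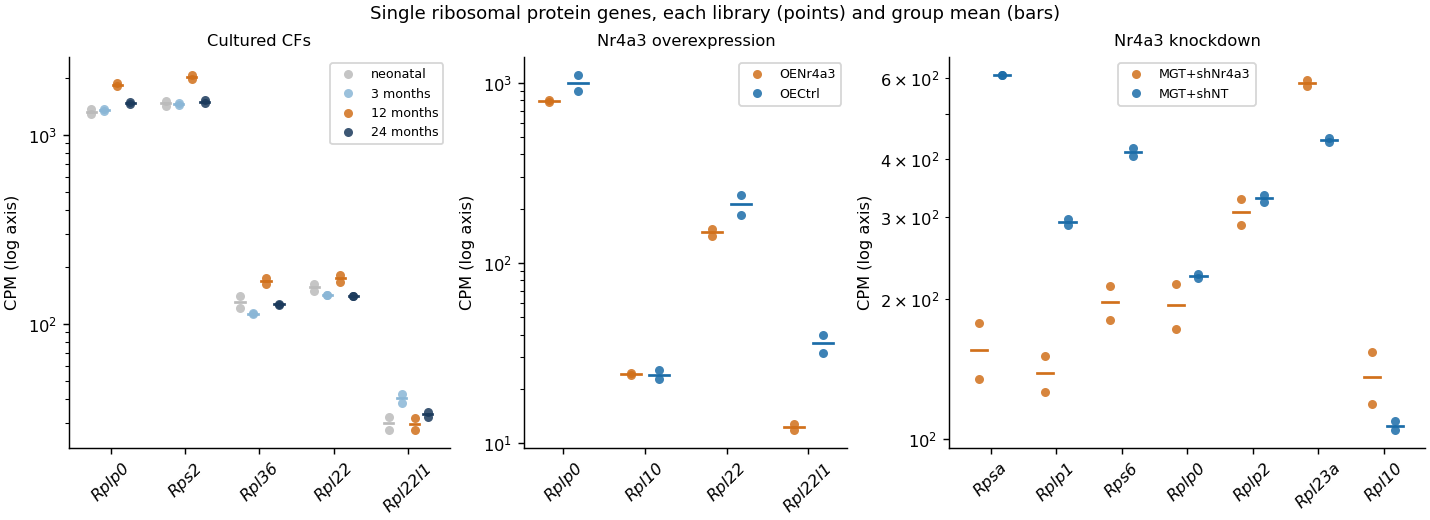
CPM (vertical axes, log scale) of single members (horizontal axis) in every library (points) of cultured CFs by age, of OENr4a3 and OECtrl cells and of MGT+shNr4a3 and MGT+shNT cells, with a bar at each group mean. Rplp0 is highest at 12 months, at 1808 and 1869.7 CPM, and Rpl22l1 at 3 months, at 42.4 and 38.1 CPM; Rpsa, Rplp1 and Rps6 lie apart between the knockdown groups, Rpsa at 177 and 134 CPM in MGT+shNr4a3 cells against 607 and 608 CPM in MGT+shNT cells.

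Of 40 ribosome biogenesis factors 24 fell and 4 rose in MGT+shNr4a3 cells, with a median of -0.36, among them Tsr1 (-1.67), which acts in small-subunit maturation, and Bop1 (-1.03), which acts in large-subunit maturation. Of 78 mitochondrial ribosomal protein genes 21 fell and 16 rose. Cycling markers summed to 189 to 191 CPM in MGT+shNr4a3 cells, against 336 to 353 CPM in MGT+shNT cells, and cardiomyocyte markers to 5478 to 6249 CPM, against 9468 to 11061 CPM. Nearly all of the cardiomyocyte sum was Tnnt2, at 5952 and 5083 CPM in MGT+shNr4a3 cells, against 10856 and 9277 CPM in MGT+shNT cells. Actc1, Ttn, Ryr2, Actn2 and Myh6 were higher with the knockdown, Myl7 and Pln were lower, and Tnni3 overlapped. Fibroblast markers summed to 7126 to 7509.6 CPM in MGT+shNr4a3 cells, against 5446 to 5613 CPM in MGT+shNT cells. Postn alone had 3626 and 3471 CPM in MGT+shNr4a3 cells, against 275 and 333 CPM in MGT+shNT cells. Lum was also higher with the knockdown and Col3a1 overlapped, while Col1a1, Col1a2, Dcn, Pdgfra, Tcf21 and Thy1 were lower. For Col1a1 the values were 813 and 745 CPM in MGT+shNr4a3 cells, against 1381 and 1469 CPM in MGT+shNT cells. The part of these markers in these differences was not tested.

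In the single-cell libraries, 5773 of 6796 barcodes of the 24-month cells and 3828 of 4816 of the neonatal cells had at least 500 genes and at most 20% mitochondrial UMIs, with medians of 20771 and 13960 UMIs per cell. Members took 20.2% of UMIs in 24-month MGT cells and 19.9% in neonatal MGT cells. Per cell, the median was 19.7% (interquartile range 16.6% to 23.3%) in 24-month cells and 18.7% (14.3% to 24.0%) in neonatal cells, so the ranges overlapped almost whole. With 1 library per age there is no test, and intervals cover counting error only. The libraries shared 11 barcode sequences.

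Over 83 members at 50 CPM or more, the median log2 ratio of 24-month over neonatal cells was 0.03, with 52 members higher and 31 lower. None differed by 2-fold, against 13.4% of all 3304 genes at that level. Mitochondrial ribosomal protein genes were lower in 48 of 50 cases, with a median of -0.30. The member with the largest difference was Rps27l, a p53-inducible paralog of Rps27, with 889.9 CPM (exact Poisson 95% interval 885 to 895) in 24-month cells and 1226 CPM (1219.6 to 1232) in neonatal cells, a log2 ratio of -0.46. Rpl15 had 2182 CPM in 24-month cells and 2777 CPM in neonatal cells, and Rpl41 had 3758 CPM in 24-month cells and 4509.95 CPM in neonatal cells. Rpl12, a protein of the stalk base, had 2845 CPM in 24-month cells and 2375 CPM in neonatal cells, a log2 ratio of 0.26, and Rplp1 had 6422 CPM in 24-month cells and 5676 CPM in neonatal cells. Rpl3l had 5 UMIs in 24-month cells and 8 in neonatal cells, and Rpl10l had none in either, which at a floor of 3 counts allows up to 0.0198 CPM in 24-month and 0.0244 CPM in neonatal cells, from counting error alone.

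Cells were clustered without the members, and clusters were named only from marker genes; doublets were not removed, and the names are rebuilt from the counts. The median share of UMIs on members was 13.9% in a neonatal cardiomyocyte-like cluster of 819 cells led by Myh6 and Csrp3 and 16.6% in another of 660 cells with few UMIs per cell. It was 20.9% in the largest neonatal cluster, 874 cells led by Crabp1. In the cluster led by Myh6, 8 cardiomyocyte markers and 7 fibroblast markers were each detected in at least 25% of cells. Against the other clusters, the median log2 level was 4.90 for the cardiomyocyte markers and -1.16 for the fibroblast markers. The highest medians were 24.4% in 24-month (342 cells) and 29.7% in neonatal cells (389 cells) of an unnamed cluster led by Maff. That cluster had few UMIs per cell, with medians of 2845 and 3093. Another unnamed cluster with few UMIs, led by AY036118, had 21.3% in 24-month (1428 cells) and 22.9% in neonatal cells (563 cells). Macrophage-like cells had 17.7% at 24 months (820 cells) and 18.7% in the neonatal library (198 cells), and a cluster led by the cell-cycle genes Ube2c and Pbk had 20.9% (184 cells) and 20.3% (140 cells). Cells led by the nuclear RNAs Malat1, Meg3 and Kcnq1ot1 were far below all others, at 1.76% in 24-month (191 cells) and 0.941% in neonatal cells (91 cells). Most clusters came mainly from 1 library, so cluster and library cannot be told apart for them.

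**Figure D5:**
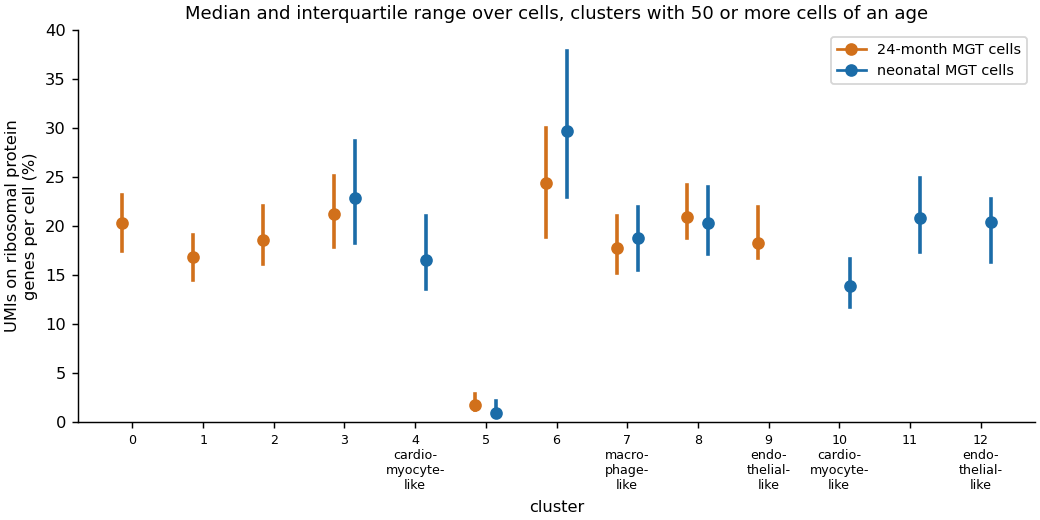
Share of UMIs on members per cell (%, vertical axis; point, median; bar, interquartile range) by cluster (horizontal axis) in 24-month and neonatal MGT cells, where at least 50 cells of that age were in the cluster. The neonatal cardiomyocyte-like clusters lie at 13.9% and 16.6%, below the macrophage-like cluster at 17.7% and 18.7%, and the cluster led by nuclear RNAs lies lowest at 1.76% and 0.941%.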

How the data were processed

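The authors deposited raw counts per gene for 28 bulk libraries in 4 tables and UMI counts for 2 single-cell libraries. Reads were trimmed with Trimmomatic 0.36 and counted with featureCounts of Subread 1.5.1, per the submitters' processing notes, which name mm10. Some column names differ from the labels (13 months against 12, 15 months against 18), and groups follow the labels. Column names of 4 knockdown count columns matched no sample, and these columns were not used. The labels name both poly(A) selection and ribosomal RNA depletion. Coordinates in the tables were not printed; genes were joined by identifier and symbol.

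Each table was fitted by itself over all its groups with edgeR 4.0.16 (R 4.3.3): low-count filter, TMM, robust quasi-likelihood test, Benjamini-Hochberg over all genes. DESeq2 1.42.0, other scalings and filters, a replicate block and leaving out each library were the alternatives, and removal of the trend with gene length was added after seeing the data. Members, lists and tests were chosen with earlier results of these data known. Named members are those with roles or paralogs listed for the report, the 5 largest called rises and falls per comparison at an average log2 CPM of 3 or more, and the few called against the majority; other lists show up to 4 called genes with the smallest p. Rpl3l, Rpl10l and members printed only to show a table difference have no test. Single cells were clustered with scanpy 1.11.5 on 2000 variable genes and 50 components without the members. The scripts were tested on simulated data. Counts at the depths given limit precision most for members under 1 CPM. Some results are not reported here.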

Additional observations from a re-analysis of the deposited data

Results flagged for a closer look

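The effect of MGT on single members differed between age groups by the interaction test of edgeR, with adjusted p over all genes under 0.05. Each difference is on the log2 scale and negative where MGT lowered the gene more at 18 months. Between 18-month and neonatal CFs, age cannot be told apart from sex, given the Xist levels above. Between 18-month and neonatal CFs the differences were -0.83 ± 0.16 (SE) for Rpl6l, -0.75 ± 0.13 for Rpl37rt, -0.61 ± 0.13 for Rpl41, -0.55 ± 0.12 for Rpl30, -0.45 ± 0.11 for Rpl35 and -0.43 ± 0.11 for Rps18. Between 18-month and 3-month CFs they were -0.71 ± 0.13 for Rpl37rt, -0.59 ± 0.13 for Rpl41, -0.58 ± 0.16 for Rpl6l, -0.43 ± 0.11 for Rpl35 and -0.42 ± 0.11 for Rpl7a, and 0.75 ± 0.20 for Rpl17.

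Rpl17 alone went the other way. It had 22.2 and 20.4 CPM in MGT cells, against 17.0 and 16.3 CPM in LacZ cells, at 18 months, and 17.9 and 19.9 CPM in MGT cells, against 20.7 and 28.7 CPM in LacZ cells, at 3 months. Neither effect was called at its own age, with adjusted p of 0.0969 and 0.0546 in edgeR, and the 3-month LacZ libraries lay farther apart than any other pair here. Rpl6l and Rpl37rt are annotated pseudogenes that can share reads with Rpl6 and Rpl37. Groups had 2 libraries, so single libraries were not examined as outliers.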

How the results depend on the processing

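Of the counts of called members under settings other than leaving out a library, 117 stayed within 1.5 times the reported count and in the same direction. The rest follow as totals of called members. With the trend with gene length removed, 38 were called in 12-month against neonatal CFs (26 up, 12 down), 10 in MGT against LacZ at 3 months, 10 in 3-month against neonatal LacZ cells, 35 in OENr4a3 against OECtrl cells, and 36 in 18-month against neonatal LacZ cells, where the majority turned round (11 up, 25 down). With DESeq2, 3 were called in 24-month against 3-month CFs and 12 in 3-month against neonatal LacZ cells. Fitted on the compared groups alone, 13 were called for MGT in neonatal and 0 in 3-month CFs, 5 in 3-month against neonatal, 46 in 18-month against neonatal and 1 in 18-month against 3-month LacZ cells. Scaling without the members gave 10 for MGT at 3 months, and no low-count filter gave 13 for the MGT effect of 18-month minus neonatal. The cause of these changes was not tested.

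When each library was left out in turn, called members ranged from 23 to 60 (3-month against neonatal CFs), 27 to 63 (12-month against neonatal), 2 to 3 (24-month against 3-month), 0 to 67 and 46 to 61 (MGT at 3 and 18 months), 0 to 16, 2 to 5 and 1 to 51 (MGT effects, 3-month minus neonatal, 18-month minus neonatal, 18-month minus 3-month), 2 to 63, 6 to 10 and 2 to 58 (LacZ, 3-month against neonatal, 18-month against neonatal, 18-month against 3-month, the last with 8 calls and the majority turned round without 3-month replicate 2), 15 to 81 (OENr4a3) and 16 to 57 (knockdown). Log2 ratios of count shares ranged from -0.346 to -0.0586 (MGT at 3 months), 0.0191 to 0.307 and -0.294 to -0.00623 (LacZ, 3-month against neonatal and 18-month against 3-month), -0.69 to -0.34 (OENr4a3) and -0.32 to -0.10 (knockdown). The share ratio of 24-month to neonatal CFs was -0.19 without mitochondrial and the 10 most counted genes. The members' median log2 change changed sign in 3 comparisons: for the MGT effect of 3-month minus neonatal it was 0.06 without LacZ 3-month replicate 2 and 0.00 with the length trend removed, for 18-month against neonatal LacZ cells -0.05 with that trend removed and -0.00 without LacZ 18-month replicate 1, and for 24-month against 3-month CFs it stayed between -0.02 and 0.01. With 1 library left out it ranged from -0.19 to -0.08, 0.08 to 0.21 and -0.18 to -0.04 in 3-, 12- and 24-month against neonatal CFs, -0.17 to -0.07 and -0.35 to -0.06 for MGT in neonatal and 3-month CFs, 0.00 to 0.33 and -0.32 to -0.01 in 3-month against neonatal and 18-month against 3-month LacZ cells, -0.37 to -0.11 for the MGT effect of 18-month minus 3-month, -0.67 to -0.37 in OENr4a3 cells and -0.26 to -0.05 in the knockdown. With the length trend removed it was 0.05 in 12-month and -0.16 in 24-month against neonatal CFs, -0.11 for MGT in 3-month CFs, 0.06 in 3-month against neonatal LacZ cells, -0.19 for the MGT effect of 18-month minus neonatal and -0.26 in OENr4a3 cells. The single-cell shares were 20.1% with all barcodes, 20.1% with at least 1000 genes and 20.4% without mitochondrial UMIs in 24-month cells, and 19.9%, 19.8% and 20.3% in neonatal cells. No member called and named by rule changed direction in any of these settings. This does not cover members that were not called, some of which lay near 0.

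Replicate numbers were taken as names: deviations of same-numbered libraries correlated between -0.08 and 0.07. With a replicate block 67 members fell in OENr4a3 cells, and 5 rose and 38 fell in the knockdown.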

Other observations

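Among genes around the members, Mycn, a transcription factor that drives ribosome production, was higher in 12-month than in 3-month CFs, by 1.01 on the log2 scale, and lower in OENr4a3 than in OECtrl cells, by -1.10. In the p53 list, Ccng1 was higher by 0.71 and Trp53 by 0.19 in 12-month than in 3-month CFs, and Mdm4, a second inhibitor of p53, was lower by -0.24. The log2 differences given here are calls of edgeR over all genes, and none of these genes was tested for a link with the members.

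In the knockdown table the large-subunit members took 1.33% and 1.14% of counts in MGT+shNr4a3 cells, against 1.39% and 1.35% in MGT+shNT cells, and the small-subunit members 0.502% and 0.432%, against 0.593% and 0.585%.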
